A study of Homo sapiens with 8 samples.

Results

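Gene expression in weightlessness was compared with gene expression under artificial gravity, in human endothelial cells flown in one incubator. The comparison used 5 of the 8 RNA-seq libraries of the study, chosen by their sample titles: 3 of cells kept in weightlessness (space_microg) and 2 of cells spun at 1 g in the centrifuge of the incubator (space_1g). All 8 were HMEC-1, a single line of dermal microvascular endothelium, immortalised by large T antigen of a virus. The cells of every group were grown on gelatin-coated plastic coverslips in medium with serum, hydrocortisone and EGF, and both flight groups shared the launch, the Columbus module of the International Space Station, fixation in orbit and storage at 6°C after return. The other 3 libraries came from cells kept on the ground, and they entered the fit as a group of their own and are given for reference. Whether replicates came from separate cultures is not stated in the labels, and a p-value here measures only how far these libraries spread, which may be technical. Total RNA was sequenced after removal of ribosomal RNA, which keeps RNA that lacks a poly(A) tail, as most histone mRNA does.

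A centrifuge in orbit restores weight while cosmic radiation, launch and fixation stay shared, so the comparison asks what weight adds, together with any effect of spinning. Endothelial cells are known to sense mechanical load through integrins and focal adhesions, the actin cytoskeleton, caveolae and ion channels such as PIEZO1. On the nuclear side, the coactivators YAP and TAZ, the serum response factor SRF with its actin-regulated partner MRTF, and the flow-induced factors KLF2 and KLF4 carry such signals to genes. Immediate-early genes such as FOS answer many stimuli within minutes, and histone and mitotic genes follow the share of cells that divide.

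Values are CPM (reads of a gene scaled to library size) as the authors deposited them, and differences are space_microg minus space_1g on the log2(CPM + 1) scale, which understates the change of low genes, each given ± its standard error (SE). Flight libraries held 25893168 to 35388757 reads in the listed genes. All 15 endothelial markers checked were in the table, with summed levels of 1596 to 2319 CPM in space_microg, 2006 and 1735 CPM in space_1g and 2566 to 2605 CPM on the ground. Low markers in flight were CLDN5 (0.26 to 8.03 CPM), ESAM (4.55 to 7.90 CPM), EMCN (1.04 to 20.8 CPM) and CD34 (4.88 to 25.9 CPM). Of 5 erythroid or platelet markers 0 were listed, of 4 leukocyte markers 1 (CD14), of 6 epithelial markers 1 (KRT10) and of 7 fibroblast or mural markers 4, summing to 147 to 194 CPM in space_microg and to 302 and 208 CPM in space_1g. Among these, the defining fibroblast genes PDGFRA, DCN and LUM, the leukocyte gene PTPRC and the epithelial gene EPCAM were not listed. CSPG4 made up the largest part of the fibroblast or mural sum, at 92.3 to 259 CPM in flight. A longer fibroblast and mural list, given further on, had its lowest flight level in space_1g replicate 1.

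The 2 space_1g libraries differed from each other more than space_1g replicate 2 differed from weightless cells. The median absolute difference between space_1g replicates 1 and 2 was 0.39 over all genes, with a difference over 1 in 1982 genes (12.3%). Between space_1g replicate 2 and the 3 space_microg libraries the median was 0.17, 0.20 and 0.18, and within space_microg it was 0.23, 0.23 and 0.26. Each weightless library was thus nearer to space_1g replicate 2 than to either other weightless library. Between space_1g replicate 1 and space_microg replicates 1 to 3 the medians were 0.30, 0.45 and 0.45. In a principal component analysis of the flight libraries the first component held 69.9% of the variance, with space_1g replicate 1 at a score of 66.5, space_microg replicate 1 at 5.33 and the other 3 between -28.8 and -20.0. With the ground libraries included, ground replicate 3 scored 64.7 and space_1g replicate 1 60.7 on the first component. The others lay between -31.1 and 1.51. Ground replicate 3 thus stood apart in the same direction, and its values add to the spread used by both fits. Since space_1g replicate 1 stood apart from the other flight libraries, many results below are also given against space_1g replicate 2 alone. Where 2 values follow each other without a further label, they are those with both space_1g libraries and with replicate 2 alone.

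**Figure D1:**
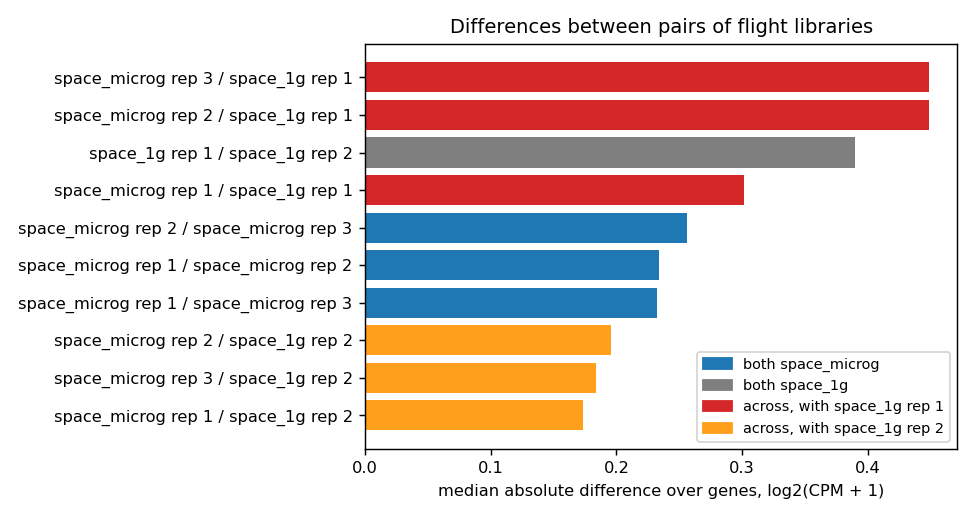
Median absolute difference in log2(CPM + 1) over the 16103 genes tested for each of the 10 pairs of flight libraries, with bar colour giving the kind of pair. The 3 shortest bars pair space_microg with space_1g replicate 2 (0.17 to 0.20), and the pair of space_1g libraries is at 0.39.

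No gene separated weightlessness from 1 g past the threshold. With limma and Benjamini-Hochberg adjustment at 0.05, 0 of 16103 genes (0%) passed, with a smallest adjusted p of 0.912, and edgeR and DESeq2 on the recovered reads also called 0. At an unadjusted p under 0.05 stood 212 genes (1.32%), 112 higher (0.696%) and 100 lower (0.621%) in space_microg, where a uniform spread of p would give 805. The same unadjusted limit was met by 221 genes with edgeR and 339 with DESeq2. Leaving out space_1g replicate 1 gave 33 such genes in limma, and leaving out its replicate 2 gave 2421. The count was 298, 117 and 71 with space_microg replicates 1 to 3 left out in turn, and 139, 160 and 496 with ground replicates 1 to 3 left out. Against space_1g replicate 2 alone, 0 genes passed with limma, edgeR and DESeq2, with a smallest adjusted p of 1.00, and 33 (0.205%), 34 and 48 genes had an unadjusted p under 0.05, the 33 being 14 higher (0.0869%) and 19 lower (0.118%). Here too the count moved, to 19, 14 and 59 without space_microg replicates 1, 2 and 3, and to 15 and 148 without ground replicates 1 and 3. The lone library is assumed to vary like those of the other groups.

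**Figure D2:**
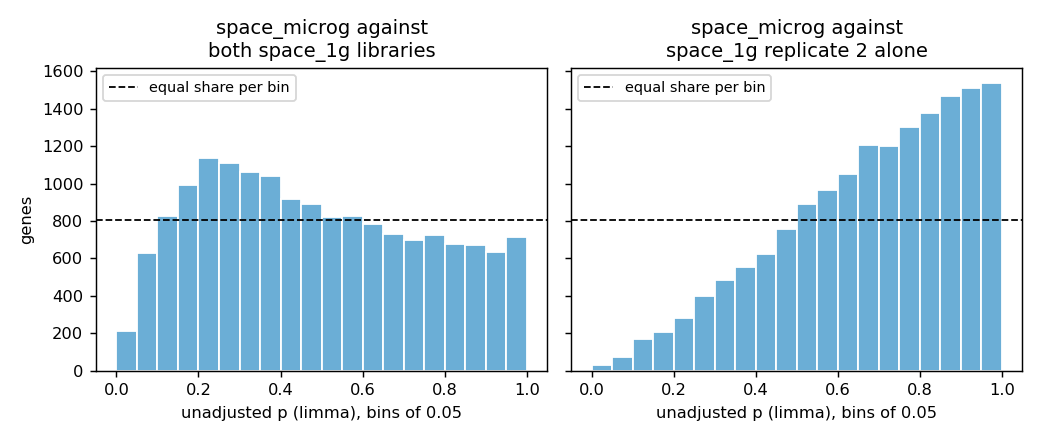
Number of genes by unadjusted limma p, in bins of 0.05, against both space_1g libraries (left) and against space_1g replicate 2 alone (right), with a dashed line at an equal share per bin. In the lowest bin there are 212 and 33 genes, below the 805 of the dashed line.

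The size of difference that could have been seen was limited. The median standard error was 0.27, at which a difference of 0.62 gives an unadjusted p of 0.05. Against replicate 2 alone the median standard error was 0.33, and that difference was 0.76. In simulated data with known changes, 4-fold changes were recovered in 78% of genes with both space_1g libraries and in 48% with 1, and changes of 1.5-fold in 0% of genes. The simulation drew each gene on its own, with no shift shared by the genes of a library such as that of space_1g replicate 1. Planting the changes together also eased the adjusted threshold. These percentages thus do not measure what could be seen in the real libraries. For a single gene, an exact rank-sum test of 3 against 2 libraries cannot give a two-sided p below 0.2. Every gene named below missed the adjusted threshold, and its values are given as measurements. Another description is whether all 3 space_microg libraries lay above both space_1g libraries, which held for 1166 genes (7.24%), or below both, which held for 1113 (6.91%).

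The genes with the smallest p below 1 g included POLR2A, the largest subunit of RNA polymerase II, and KDM6B, a demethylase that removes a repressive mark from histone H3. POLR2A was measured at 332, 275 and 294 CPM in space_microg and 482 and 505 CPM in space_1g. All 3 weightless libraries lay below both 1 g libraries, as its selection required, and the 1 g libraries were close to each other. Ground libraries held 297, 383 and 256 CPM of POLR2A, so the space_1g values were above all other libraries. Its means were 300.1 ± 28.9 CPM (SD, n = 3) and 494 ± 15.96 CPM (SD, n = 2), a difference of -0.72 ± 0.20 (SE; 95% interval -1.17 to -0.27, unadjusted p 0.00592 with limma). Against replicate 2 alone it was -0.75 ± 0.26. POLR2A lies on chromosome 17 from 7484366 to 7514616 in GRCh38 (GENCODE v29), and KDM6B on chromosome 17 from 7839904 to 7854796. KDM6B had 11.3, 8.32 and 8.42 CPM in space_microg and 23.3 and 16.2 CPM in space_1g, without overlap, and 9.83, 10.9 and 9.96 CPM on the ground, again below both 1 g libraries. The difference of KDM6B was -0.996 ± 0.24 with both space_1g libraries and -0.75 ± 0.29 with replicate 2 alone.

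HK2, hexokinase 2, which starts glycolysis, had 14.6, 9.395 and 9.43 CPM in space_microg and 19.02 and 20.8 CPM in space_1g. Space_microg replicate 1 was nearest to 1 g, and the groups did not overlap. The difference was -0.81 ± 0.26, and -0.87 ± 0.35 against replicate 2 alone. FOS, a subunit of the AP-1 transcription factor, was at 6.78, 6.86 and 7.85 CPM in space_microg and 17.4 and 10.3 CPM in space_1g. The weightless libraries were alike, while space_1g replicate 1 was well above replicate 2, and the difference of -0.82 ± 0.26 was -0.47 ± 0.28 without it. PALLD, which cross-links actin filaments, had 64.2, 54.8 and 59.4 CPM in space_microg and 117 and 81.8 CPM in space_1g, and SYNM, an intermediate filament protein, had 35.2, 30.9 and 25.8 CPM in space_microg and 59.8 and 38.2 CPM in space_1g. In both genes space_1g replicate 1 was highest of the 5 libraries, and the differences were -0.71 ± 0.24 and -0.64 ± 0.22, against -0.46 ± 0.27 and -0.32 ± 0.23 with replicate 2 alone. LRP1, a large endocytic receptor, had 375, 252 and 274 CPM in space_microg and 735 and 405 CPM in space_1g, with no overlap and a wide gap between the 1 g libraries. Its difference was -0.88 ± 0.32, and -0.45 without space_1g replicate 1. PRKCD, a protein kinase C, differed by -0.86 ± 0.29, TONSL, which acts at stalled replication forks, by -0.59 ± 0.18, WDR90 by -0.60 ± 0.20, NBPF14 by -0.54 ± 0.19 and the scaffold gene TANC2 by -0.49 ± 0.17. NBPF14 belongs to a family of near-identical copies, so its reads are uncertain. Without space_1g replicate 1, PRKCD differed by -0.54 and NBPF14 by -0.30.

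Genes above both 1 g libraries included RNA-binding proteins, small splicing proteins and histones. HNRNPA2B1, which binds nascent RNA and guides splicing, had 514, 530.3 and 461 CPM in space_microg and 278 and 358 CPM in space_1g. The lowest weightless library was above the highest 1 g library, and the ground libraries, at 506, 524 and 363 CPM, reached from the weightless range down to just above the upper 1 g value. Its difference was 0.66 ± 0.21, and 0.48 ± 0.26 with replicate 2 alone. SNRPF, an Sm core protein of spliceosomal snRNPs, was at 12.6, 14.8 and 21.97 CPM in space_microg and 6.697 and 9.25 CPM in space_1g, and SNRPD1, another Sm protein, at 58.4, 62.8 and 69.3 CPM in space_microg and 34.8 and 47.5 CPM in space_1g. In each of them space_microg replicate 3 was highest and space_1g replicate 1 lowest, and the differences were 0.94 ± 0.30 and 0.63 ± 0.21, and 0.73 and 0.41 without the latter library. ALDH1A1, an aldehyde dehydrogenase that makes retinoic acid, had 138, 122 and 136 CPM in space_microg and 62.3 and 93.9 CPM in space_1g, with ground values of 155, 132 and 97.7 CPM. Its weightless libraries lay close together, and the difference was 0.78 ± 0.24, or 0.49 ± 0.26 against replicate 2.

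DBI, which binds acyl-CoA, had 31.7, 32.2 and 43.3 CPM in space_microg and 16.1 and 23.6 CPM in space_1g, a difference of 0.83 ± 0.26. RPS12, a protein of the small ribosomal subunit, had 242, 278 and 379 CPM in space_microg and 183 and 176 CPM in space_1g, where the 1 g libraries were nearly equal. Its difference was 0.71 ± 0.24, and 0.74 ± 0.31 against replicate 2 alone, with an unadjusted p of 0.0446. RPL22L1, a paralog of a large-subunit protein, differed by 0.76 ± 0.24, the small actin-related regulator ABRACL by 0.58 ± 0.19 and ERH by 0.89 ± 0.30. Ribosomal protein genes have many processed copies in the genome, so reads of RPS12 may be shared with them. Coding genes overlap SNRPF (CCDC38), ERH (SLC39A9), HNRNPA2B1 (NFE2L3 and CBX3), PALLD (DDX60L and CBR4), LRP1 (STAT6) and, among genes described further on, HIST1H2AK (HIST1H2BN), ATOX1 (G3BP1), FOSB (ERCC1), FGF2 (NUDT6), NOS3 (ATG9B), PIEZO1 (CTU2), RPS13 (PIK3C2A), GBP2 (GBP7), DNAJB4 (GIPC2), HSPE1 (HSPD1) and, with coding genes known only by clone names, CDC42 and PER1 in GENCODE v29, and no source used here gives the strand setting of the counting.

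**Figure D3:**
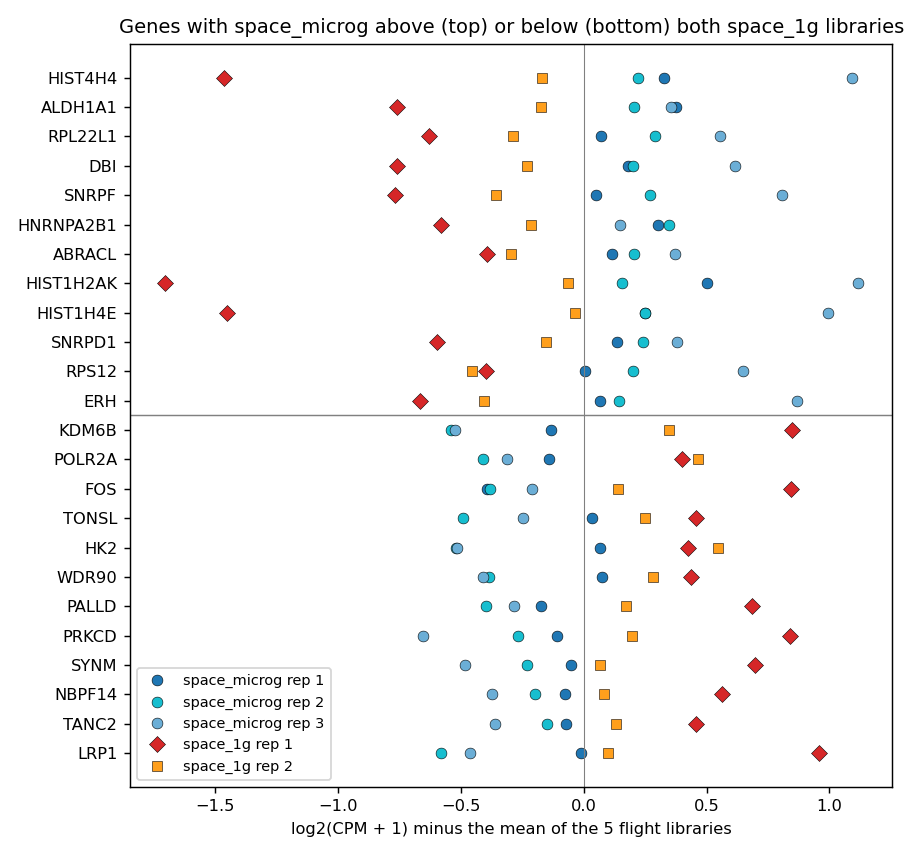
Level of the 24 named genes in each flight library as log2(CPM + 1) minus the mean of the 5 libraries, with points coloured by library, genes above both space_1g libraries on top and genes below both at the bottom. For the 3 histone genes and LRP1 space_1g replicate 1 (diamonds) lies far from replicate 2 (squares), while for POLR2A, HK2, RPS12 and ABRACL the space_1g libraries lie close together.

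Base composition differed between the genes above and below 1 g. Genes above both 1 g libraries had a median GC content of 42.2% and genes below both had 54.0%, against 48.3% over the 13870 genes with a matched transcript. The gap was smaller for genes above and below replicate 2 alone, at 45.3% and 49.8%. GC content and transcript length together accounted for 54.2% of the variance of the deviation of space_microg replicate 2 from the mean of the libraries, for 14.8% in space_microg replicate 3, 14.9% in space_1g replicate 1, 6.78% in space_1g replicate 2 and 2.504% in space_microg replicate 1. With these trends taken out of each library, an alternative chosen after seeing the data, the difference was -0.46 for POLR2A, -0.61 for KDM6B, -0.18 for TONSL, -0.19 for WDR90 and -0.39 for LRP1. HNRNPA2B1 was then at 0.51, SNRPF at 0.69 and RPS12 at 0.67. The values of TONSL, WDR90, POLR2A, KDM6B and LRP1 moved by over 1.5 times, and 0 genes passed the adjusted threshold under this alternative. Among genes described further on, the same held for PER1 (-0.086), FGF2 (0.16), ARPC3 (0.24), MSMO1 (0.28), B2M (0.18), NOTCH3 (-0.72), SOX18 (-0.95 before and -0.62 after), NOS3 (-0.58 and -0.25), CSPG4 (-0.68 and -0.23), TLN2 (-0.74 and -0.47), HSPA1A (-0.46 and -0.26), PRPF8 (-0.36 and -0.16), DNAJB4 (0.75 and 0.42) and CDK1 (0.63 and 0.40). The differences of CIRBP (0.36), ACTB (0.13) and CAV1 (-0.085) became larger in size, and that of PIEZO1 turned to 0.12.

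Replication-dependent core histone genes, which package newly copied DNA, had the highest list median. All 54 measured members had a positive difference, where 46.6% of all genes did, and 15 lay above both 1 g libraries (7.24% of all genes). The list median was 1.24 with both space_1g libraries, against -0.025 over all genes. With replicate 1 of space_1g left out it was 0.12, and with replicate 2 left out 2.34. Median levels relative to the mean of the flight libraries were 0.28, 0.20 and 1.09 in space_microg replicates 1 to 3, -1.84 in space_1g replicate 1 and 0.31 in space_1g replicate 2. Space_1g replicate 2 lay within the space_microg range, and space_microg replicate 3 was highest. Ground replicates 1 to 3 were at 0.25, -0.064 and -0.87.

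The members below are given in full by the rule for named genes. HIST1H4E, an H4 gene, had 105, 105 and 177 CPM in space_microg and 31.7 and 86.2 CPM in space_1g, a difference of 1.24 ± 0.41. HIST1H2AK, an H2A gene, had 21.8, 16.9 and 33.9 CPM in space_microg and 3.93 and 14.4 CPM in space_1g, a difference of 1.48 ± 0.48. HIST4H4, an H4 gene outside the main cluster, had 19.6, 18.1 and 33.9 CPM in space_microg and 4.94 and 13.6 CPM in space_1g, and differed by 1.36 ± 0.41. In all 3 genes space_1g replicate 1 was lowest and replicate 2 lay just under the weightless values. Against replicate 2 alone they differed by 0.53 ± 0.34, 0.66 ± 0.40 and 0.72 ± 0.39. HIST1H2BG, an H2B gene, had 133, 147 and 216 CPM in space_microg and 28.7 and 111 CPM in space_1g. Histone genes share near-identical sequence, so the split of reads between copies is uncertain.

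Promoters of 2 of these genes, an H2A and an H4 gene, show how members with a like pattern differ in sequence. Sequences are from RefSeq (GRCh38.p14), 250 bases before to 50 after the start, 5′ to 3′ on the strand of the gene, with matches to CCAAT, or to its reverse complement ATTGG, in capitals. HIST1H2AK lies on the minus strand at chr6:27838326-27838625 and HIST1H4E on the plus strand at chr6:26204360-26204659.
HIST1H2AK: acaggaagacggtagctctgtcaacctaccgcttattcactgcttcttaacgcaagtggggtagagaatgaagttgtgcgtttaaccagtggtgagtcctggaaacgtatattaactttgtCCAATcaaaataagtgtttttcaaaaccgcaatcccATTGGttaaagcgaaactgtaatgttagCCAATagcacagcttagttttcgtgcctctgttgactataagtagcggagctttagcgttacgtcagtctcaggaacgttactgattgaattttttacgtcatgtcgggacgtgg
HIST1H4E: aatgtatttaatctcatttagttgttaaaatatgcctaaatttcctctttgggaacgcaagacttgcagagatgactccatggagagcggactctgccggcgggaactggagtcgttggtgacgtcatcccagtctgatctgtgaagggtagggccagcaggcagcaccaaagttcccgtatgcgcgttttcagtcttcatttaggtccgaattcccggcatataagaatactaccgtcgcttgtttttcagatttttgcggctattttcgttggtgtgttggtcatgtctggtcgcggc
The HIST1H2AK promoter held 3 matches and HIST1H4E 0, which says that these letters are not in this window. Promoters were matched for 41 of the 54 histone genes, and 34 of the 41 held CCAAT on either strand, against 34.6% of all 35116 promoters of this length. All matched promoters without CCAAT were those of H4 genes, while other H4 promoters, such as that of HIST1H4I, held it. TATAAA, searched on both strands, was in 28 of the 41 and in 11.5% of all promoters. A match is a description of the letters, and promoters of genes with many copies are alike.

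Mitotic genes had the same outlying library. Of 52 members 51 had a positive difference (46.6% of all genes), with a median of 0.57. Only 2 of the 52 lay above both 1 g libraries, where 7.24% of all genes did. Without space_1g replicate 1 the median was -0.052, with 17 of 52 positive, and without replicate 2 it was 1.15. In these libraries 12 members lay below replicate 2 and above replicate 1 in all 3 weightless samples (5.76% of all genes). CDK1, the kinase that drives entry into mitosis, had 239, 311 and 327 CPM in space_microg and 129 and 269.6 CPM in space_1g. NDC80, which ties kinetochores to microtubules, had 104, 123 and 115 CPM in space_microg and 53.1 and 99.2 CPM in space_1g. For both genes space_1g replicate 1 was lowest, and for CDK1 replicate 2 lay inside the weightless range. Genes of DNA replication had a median of 0.063 over 54 members, ranging from -0.0048 without space_1g replicate 1 to 0.15 without space_1g replicate 2, and DNA repair genes one of 0.056 over 59, ranging from 0.0074 without space_microg replicate 2 to 0.12 without space_1g replicate 2. Without space_1g replicate 1 the difference was 0.10 for CDK1 and 0.20 for NDC80, against 0.63 and 0.64 with it.

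In the list levels of p53 and interferon targets the weightless libraries lay between the 2 space_1g libraries. Of 34 genes induced by p53, the factor that answers DNA damage, 31 had a negative difference with both space_1g libraries (53.4% of all genes), median -0.37, yet all 34 had a positive one against replicate 2 alone, median 0.26, where 49.2% of all genes did. All 3 weightless libraries were above replicate 2 in 19 of them (16.9% of all genes) and below replicate 1 in 31 (37.9% of all genes), and 17 met both (6.47% of all genes). List levels were 0.036, -0.30 and -0.15 in space_microg, 0.97 in space_1g replicate 1 and -0.49 in replicate 2. In ground replicates 1 to 3 they were -0.76, -0.67 and 0.85. CDKN1A, the cell cycle inhibitor p21, had 879.6, 539 and 791 CPM in space_microg and 2315 and 610.4 CPM in space_1g, and its difference of -0.72 ± 0.79 was smaller than its SE and turned to 0.24 without space_1g replicate 1. The viral large T antigen that immortalised HMEC-1 is known to bind p53. PLK2, a p53-induced kinase, had 141, 119 and 153 CPM in space_microg and 132 and 101 CPM in space_1g, where replicate 2 was lowest.

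Interferon-induced genes, which serve antiviral defence, also had the weightless libraries between the 2 space_1g libraries. Of the 60 members 51 had a negative difference with both space_1g libraries (53.4% of all genes), median -0.27, and 58 a positive one against replicate 2 alone (49.2% of all genes), median 0.52. In 35 of them all 3 weightless libraries lay above replicate 2 and below replicate 1 (6.47% of all genes). Levels were 0.32, -0.28 and -0.52 in space_microg replicates 1 to 3, 1.01 in space_1g replicate 1 and -0.61 in replicate 2. In ground replicates 1 to 3 they were -0.28, -0.78 and 1.23. The direction of both lists thus depended on which 1 g library was used. B2M, the light chain of MHC class I, had 1503, 1853 and 1974 CPM in space_microg and 1380.4 and 1401 CPM in space_1g, above both without overlap, and GBP2, an interferon-induced GTPase, 2.73, 3.44 and 2.75 CPM in space_microg and 0.585 and 1.699 CPM in space_1g. Their differences were 0.34 ± 0.24 and 0.94 ± 0.32, opposite in sign to the list median, and 0.33 and 0.55 without space_1g replicate 1.

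Other stress lists also differed with the choice of 1 g library. Immediate-early genes had a median of -0.65, and 0.11 with replicate 2 alone. With both space_1g libraries 31 of 35 were negative (53.4% of all genes) and 4 lay below both (6.91% of all genes). Genes of the integrated stress response, which ATF4 drives when translation is slowed, had -0.42, and 0.098 with replicate 2 alone. With both space_1g libraries 37 of 38 were negative (53.4% of all genes). For inflammation the medians were -0.26 and 0.19. With each flight library left out in turn the medians ranged from -1.17 without space_1g replicate 2 to 0.11 without space_1g replicate 1 for immediate-early genes and from -0.97 without space_1g replicate 2 to 0.098 without space_1g replicate 1 for the stress response. FOSB, a partner of FOS, had 2.88, 1.11 and 1.07 CPM in space_microg and 5.17 and 3.398 CPM in space_1g, and DUSP1, a phosphatase that limits MAP kinases, 74.8, 47.2 and 67.3 CPM in space_microg and 149 and 77.5 CPM in space_1g. Both were below both 1 g libraries, by -1.02 ± 0.34 and -0.79 ± 0.42, and by -0.78 and -0.32 without space_1g replicate 1. CEBPB, a stress-induced factor, had 8.52, 4.17 and 6.88 CPM in space_microg and 26.8 and 8.53 CPM in space_1g, where space_microg replicate 1 nearly equalled space_1g replicate 2.

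**Figure D4:**
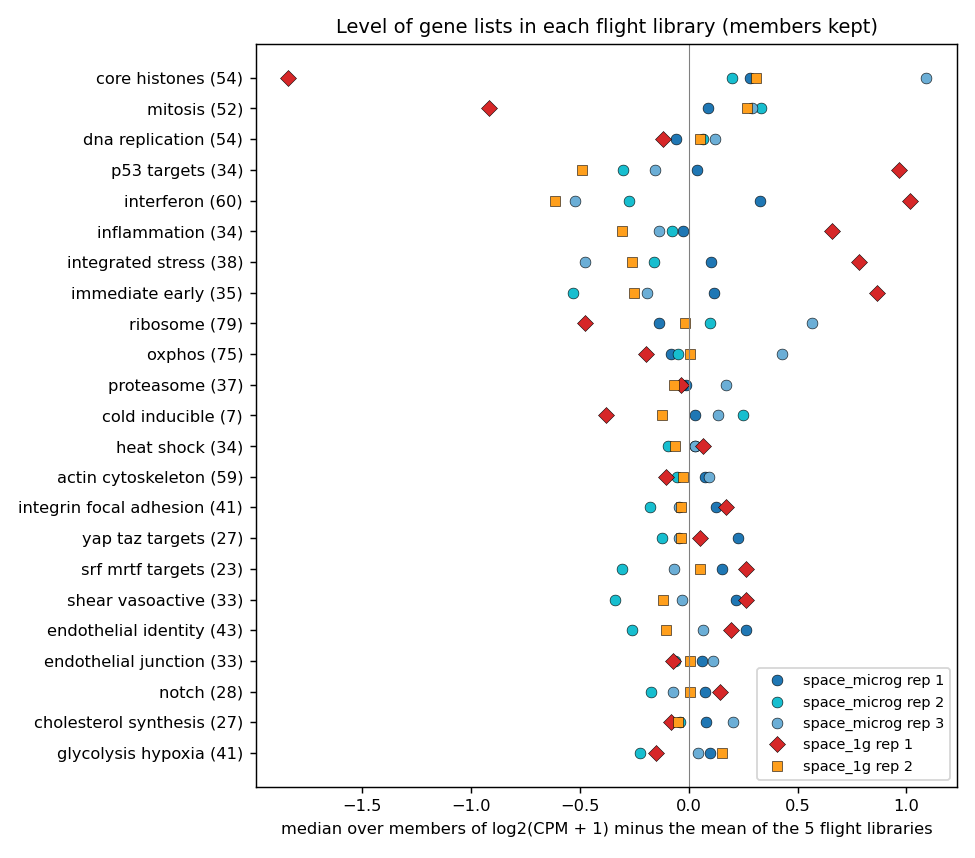
Level of 23 gene lists in each flight library, as the median over members of log2(CPM + 1) minus the mean of the 5 libraries, with the number of members kept in brackets. Space_1g replicate 1 (diamonds) is lowest for core histones (-1.84) and mitosis and highest for p53 targets and interferon, where replicate 2 (squares) is lowest.

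Lists for mechanical load had medians from -0.23 to 0.070, beside -0.025 over all genes. Of 59 genes of the actin cytoskeleton 12 lay above both 1 g libraries and 3 below both, beside 7.24% and 6.91% of all genes, with a median of 0.057 and 0.038 against replicate 2 alone. CDC42, a GTPase that organises actin and cell polarity, had 244, 268 and 288 CPM in space_microg and 186 and 208 CPM in space_1g, a difference of 0.43 ± 0.17. ARPC3, a subunit of the ARP2/3 complex that branches actin, had 152, 174 and 188 CPM in space_microg and 116 and 137 CPM in space_1g, and TMSB4X, which binds actin monomers, 531, 509 and 747 CPM in space_microg and 349 and 417 CPM in space_1g. All 3 genes were without overlap, with differences of 0.43 ± 0.17 and 0.62 ± 0.32 for the latter pair. ACTB itself, cytoplasmic actin, had 3269, 2047 and 3405 CPM in space_microg and 2630.3 and 2959.5 CPM in space_1g, overlapping fully, with a difference of 0.023 ± 0.29 that turned to -0.062 without space_1g replicate 1.

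Integrins and focal adhesion genes had a median of -0.077 over 41 members, with 2 above and 2 below both 1 g libraries (7.24% and 6.91% of all genes). The median was 0.027 with replicate 2 alone, where 25 were positive, and 0.026 with composition trends removed. The integrin subunit ITGA4 had 82.6, 90.04 and 91.6 CPM in space_microg and 33.3 and 80.01 CPM in space_1g, and the adaptor talin 2 (TLN2), which links integrins to actin, 65.7, 50.04 and 43.2 CPM in space_microg and 119 and 64.5 CPM in space_1g. In both of them the distant library was space_1g replicate 1. For YAP and TAZ targets the medians were 0.020 and 0.071 over 27 genes. Of these 0 lay above and 0 below both 1 g libraries, beside 7.24% and 6.91% of all genes. CTGF, a matrix-associated signalling protein and YAP target, had 250.2, 197 and 289.9 CPM in space_microg and 71.3 and 206 CPM in space_1g, a difference of 0.99 ± 0.56, and 0.23 ± 0.59 against replicate 2. CYR61, its relative, had 100.4, 81.1 and 99.3 CPM in space_microg and 69.1 and 83.2 CPM in space_1g, with overlap. SRF and MRTF targets had -0.23 over 23 genes, with 5 below both 1 g libraries and 1 above (6.91% and 7.24% of all genes). Their median was -0.069 with replicate 2 alone and 0.010 with composition trends removed. This list shares FOS and FOSB with the immediate-early list.

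Flow-responsive genes varied by library. KLF2, which flow induces, had 25.2, 6.92 and 22.9 CPM in space_microg and 47.9 and 20.6 CPM in space_1g, and KLF4, a related factor, 75.9, 38.6 and 43.8 CPM in space_microg and 196 and 44.2 CPM in space_1g. Both overlapped, with the highest value in space_1g replicate 1 and the lowest in space_microg replicate 2. NOS3, endothelial nitric oxide synthase, had 63.04, 19.8 and 26.6 CPM in space_microg and 91.2 and 25.6 CPM in space_1g, with the same highest and lowest libraries. EDN1, the vasoconstrictor endothelin 1, went the other way, with 49.4, 30.96 and 42.6 CPM in space_microg and 11.1 and 24.2 CPM in space_1g. All 3 weightless libraries were above both 1 g libraries, while the ground libraries, at 58.4, 40.5 and 18.9 CPM, covered most of the flight range. The difference of EDN1 was 1.24 ± 0.47, and 0.71 ± 0.54 against replicate 2 alone. Over 33 genes of flow response and vessel tone the median was -0.16 and 0.066, ranging from -0.32 without space_1g replicate 2 to 0.066 without space_1g replicate 1, and it was -0.036 with composition trends removed.

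PIEZO1, the mechanically gated cation channel, had 503, 268 and 329 CPM in space_microg and 514 and 386 CPM in space_1g, and CAV1, the main coat protein of caveolae, 538, 374 and 413 CPM in space_microg and 530.5 and 384 CPM in space_1g. Both overlapped, with differences of -0.33 ± 0.28 and -0.049 ± 0.21, and PIEZO1 was at 0.12 with composition trends removed. Without space_1g replicate 1 they were at -0.12 and 0.18. Of 24 genes of mechanosensitive channels and caveolae 0 lay above and 0 below both 1 g libraries, beside 7.24% and 6.91% of all genes. Nuclear lamina and LINC genes, which link the nucleus to the cytoskeleton, also had 0 and 0 of 19, with medians of 0.070 and -0.015. Tubulins and microtubule proteins had -0.057 and -0.068 over 42 members.

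Endothelial identity genes had a median of -0.053 over 43 members and 0.16 against replicate 2 alone, where 33 were positive, and of 0.15 with composition trends removed. CD34, a surface sialomucin, had 22.4, 22.1 and 25.9 CPM in space_microg and 4.88 and 21.6 CPM in space_1g, and EMCN, endomucin, 12.5, 14.9 and 20.8 CPM in space_microg and 1.04 and 13.03 CPM in space_1g. Space_1g replicate 1 was low for both, and replicate 2 was just under or inside the weightless values. SOX18, a vascular transcription factor, had 3.02, 0.934 and 3.72 CPM in space_microg and 6.89 and 4.19 CPM in space_1g, below both 1 g libraries at low counts. Junction genes had a median of 0.032, with 4 of 33 above both and 1 below, beside 7.24% and 6.91% of all genes. In the Notch pathway 4 of 28 members were below both 1 g libraries and 0 above (6.91% and 7.24% of all genes). Its medians were -0.099 and -0.020. NOTCH3, a receptor, had 49.3, 23.3 and 48.5 CPM in space_microg and 127 and 59.5 CPM in space_1g, a difference of -1.16 ± 0.69, and of -0.62 without space_1g replicate 1.

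Of 39 angiogenic ligands, receptors and guidance genes 4 lay above and 1 below both 1 g libraries, beside 7.24% and 6.91% of all genes. The medians were -0.067 and 0.12. FGF2, a growth factor for endothelium, had 97.7, 96.4 and 90.4 CPM in space_microg and 63.6 and 83 CPM in space_1g, a difference of 0.38 ± 0.17, and of 0.19 without space_1g replicate 1. ROBO1, a guidance receptor, had 41.4, 39.2 and 48.1 CPM in space_microg and 4.19 and 34.2 CPM in space_1g, where space_1g replicate 1 stood far below the other 4 libraries. TGF-beta and BMP genes had -0.040 and 0.036. Collagens, laminins and other matrix genes had 0.012 with both space_1g libraries and -0.14 with replicate 2 alone, where 14 of 49 were below it in all 3 weightless libraries, beside 16.7% of all genes. The median of the matrix genes was 0.24 with composition trends removed. EFEMP1, an elastic-fibre protein, had 1157, 917 and 1057 CPM in space_microg and 239.9 and 852 CPM in space_1g, above both.

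Ribosomal protein genes had mostly positive differences. Of 79 members 76 had a positive difference (46.6% of all genes), with a median of 0.41, and 16 lay above both 1 g libraries (7.24% of all genes). Levels were -0.13, 0.098 and 0.56 in space_microg replicates 1 to 3, -0.48 in space_1g replicate 1 and -0.018 in replicate 2, so space_microg replicate 3 was highest and replicate 1 was below space_1g replicate 2. The median ranged from 0.17 without space_1g replicate 1 to 0.64 without space_1g replicate 2. RPS13 had 244, 321 and 378 CPM in space_microg and 177 and 225 CPM in space_1g, a difference of 0.63 ± 0.23. RPL21 had 233, 359.7 and 405 CPM in space_microg and 155 and 232 CPM in space_1g, with space_microg replicate 1 barely above space_1g replicate 2.

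Genes of oxidative phosphorylation, the mitochondrial respiratory chain, had a median of 0.19, with 17 of 75 above both 1 g libraries and 0 below, beside 7.24% and 6.91% of all genes. The median ranged from 0.064 without space_microg replicate 3 to 0.32 without space_microg replicate 2, was 0.091 with replicate 2 alone, and the level of space_microg replicate 3 was 0.43, against -0.084 and -0.048 in the other weightless libraries. COX7C, a subunit of cytochrome c oxidase, had 64.3, 71.9 and 115 CPM in space_microg and 35.4 and 58.6 CPM in space_1g, a difference of 0.82 ± 0.31. UQCRB, of complex III, had 61.3, 71.1 and 101 CPM in space_microg and 38.1 and 58.6 CPM in space_1g, a difference of 0.68 ± 0.26. Without space_1g replicate 1 these were 0.46 and 0.37. Proteasome genes had a median of 0.093, ranging from 0.0052 without space_microg replicate 3 to 0.13 without space_microg replicate 2, with 9 of 37 above both (7.24% of all genes), and it was 0.018 with composition trends removed. PSMD7, a subunit of the proteasome lid, had 115, 112 and 122 CPM in space_microg and 99.7 and 92.97 CPM in space_1g, and all 3 weightless libraries exceeded both 1 g libraries. For translation factors the medians were 0.049 and 0.062.

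RBM3, which binds RNA and is induced when cells are cooled mildly, had 311, 333 and 418 CPM in space_microg and 156 and 253 CPM in space_1g. All 3 weightless libraries were above both 1 g libraries, and the ground libraries held 122, 132 and 73.5 CPM. The difference was 0.82 ± 0.30, and 0.47 ± 0.34 against replicate 2 alone. CIRBP, the related cold-inducible protein, had 82.04, 83.6 and 89.1 CPM in space_microg and 80.5 and 71.6 CPM in space_1g, with a small gap to the upper 1 g library and a difference of 0.16 ± 0.16. HNRNPDL, another RNA-binding protein, had 234, 263 and 237 CPM in space_microg and 167 and 199 CPM in space_1g, a difference of 0.42 ± 0.18. Over the 7 cold-inducible genes the median was 0.34, with 4 above both 1 g libraries (7.24% of all genes). This median ranged from 0.24 without space_1g replicate 1 to 0.55 without space_1g replicate 2. Heat shock genes had a median of -0.024, with 6 of 34 above both and 2 below, beside 7.24% and 6.91% of all genes. DNAJB4, a co-chaperone, had 119.6, 121 and 136 CPM in space_microg and 57.02 and 96.03 CPM in space_1g, and HSPE1, the mitochondrial co-chaperonin, 31.8, 30.5 and 34.8 CPM in space_microg and 20.3 and 26.7 CPM in space_1g. Both lay above both 1 g libraries, whereas HSPA1A, the inducible HSP70, overlapped, with 42.4, 21.9 and 33.9 CPM in space_microg and 58.8 and 32.7 CPM in space_1g.

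Cholesterol synthesis genes had a median of 0.14, with 8 of 27 above both 1 g libraries and 1 below, beside 7.24% and 6.91% of all genes. The median ranged from 0.070 without space_1g replicate 1 to 0.20 without space_microg replicate 2. MSMO1, a sterol demethylation enzyme, had 61.5, 61.8 and 63.9 CPM in space_microg and 39.1 and 49.3 CPM in space_1g, and FDPS, which makes farnesyl diphosphate, 160.1, 158 and 185 CPM in space_microg and 129.8 and 143 CPM in space_1g. Both were without overlap, with differences of 0.50 ± 0.23 and 0.30 ± 0.14. Genes of glycolysis and the hypoxia response had medians of -0.0057 and -0.13, and 16 of 41 were below space_1g replicate 2 in all 3 weightless libraries, with 0 above, beside 16.7% and 16.9% of all genes. HK2 was the 1 member below both 1 g libraries, beside 6.91% of all genes. Of the clock genes, PER1, a repressor of the clock, had 84.97, 73.3 and 76.98 CPM in space_microg and 108 and 102 CPM in space_1g, below both and with 1 g libraries close together, a difference of -0.42 ± 0.16 and of -0.38 ± 0.21 against replicate 2. Autophagy genes had 0.031 and 0.020, and lysosomal genes 0.027 and -0.0054. The remaining medians, again with both space_1g libraries and with replicate 2 alone, were 0.11 and 0.011 for chaperones of the endoplasmic reticulum, 0.042 and 0.054 for NRF2 targets of the oxidative stress response, -0.035 and 0.0062 for fatty acid synthesis, -0.18 and -0.025 for targets of the sterol sensor LXR, -0.21 and -0.039 for clock genes and -0.14 and 0.027 for matrix proteases. With composition trends removed, these list medians also moved by over 1.5 times or turned sign: -0.017 for LXR targets, -0.086 for clock genes, 0.026 for matrix proteases, -0.045 for the Notch pathway, -0.018 for angiogenic genes, 0.026 for TGF-beta and BMP genes and 0.038 for mechanosensitive channels and caveolae. They included 0.022 for tubulins, 0.090 for the actin cytoskeleton, 0.032 for YAP and TAZ targets, 0.070 for junction genes, 0.21 for cholesterol synthesis, 0.13 for fatty acid synthesis and -0.078 for heat shock genes as well. The last of them were 0.017 for chaperones of the endoplasmic reticulum, 0.021 for NRF2 targets, 0.024 for translation factors, -0.030 for glycolysis and hypoxia, 0.014 for autophagy, 0.13 for lysosomal genes and -0.32 for the epithelial genes described next.

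**Figure D5:**
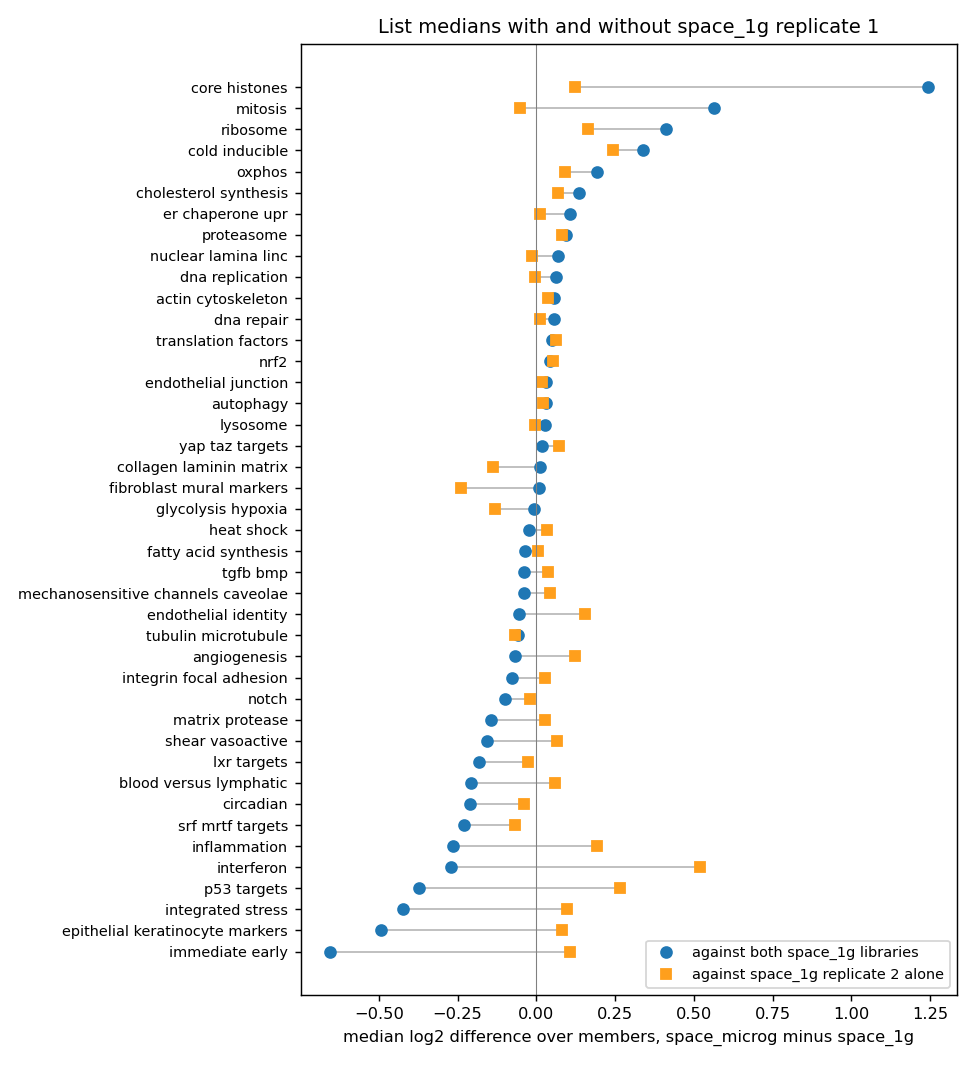
Median log2 difference over the members of each gene list, space_microg minus space_1g, with both space_1g libraries (circles) and with space_1g replicate 2 alone (squares), joined by a line per list. Core histones move from 1.24 to 0.12, and interferon (-0.27 to 0.52) and p53 targets (-0.37 to 0.26) change sign.

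Markers of other cell types also differed between the 1 g libraries. FLG, filaggrin of the outer skin, had 7.32, 0.963 and 0.772 CPM in space_microg and 55.7 and 1.095 CPM in space_1g, and PKP1, a desmosome protein, 74.6, 37.6 and 37.2 CPM in space_microg and 242 and 44.5 CPM in space_1g. Both were highest in space_1g replicate 1, with space_microg replicate 1 next. KRT10, the epithelial marker listed above, did not follow, with 1.58 to 4.29 CPM in space_microg and 2.57 and 2.91 CPM in space_1g. Over 11 of 17 listed epithelial genes the median was -0.49, and 0.082 with replicate 2 alone, while the defining keratins KRT5, KRT14 and KRT1 were not listed. With both space_1g libraries 9 of the 11 were negative (53.4% of all genes) and 2 positive. CSPG4, a pericyte proteoglycan, had 138, 92.3 and 137 CPM in space_microg and 259 and 144 CPM in space_1g, with replicate 1 again highest. Its list went the other way, with levels of -0.42 in space_1g replicate 1 and 0.39 in replicate 2. Over 10 of 16 listed fibroblast and mural genes the median difference was 0.0076. With replicate 2 alone it was -0.24, with 9 of 10 negative, and with composition trends removed 0.17. The part of such cells in any list above was not tested, and in bulk RNA fewer cells of a type and less RNA per cell cannot be told apart.

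With space_1g replicate 2 as the only 1 g library, the genes with the smallest p were partly others. All 3 weightless libraries were above it in 2717 genes (16.9%) and below it in 2695 (16.7%). The genes named here were picked from these. MAGOH, a core protein of the exon junction complex, had 17.6, 16.7 and 18.5 CPM in space_microg and 13.2 and 10.3 CPM in space_1g, a difference of 0.72 ± 0.25 against replicate 2. CD9, a tetraspanin of the cell surface, had 366, 249 and 322 CPM in space_microg and 235 and 189 CPM in space_1g, a difference of 0.70 ± 0.26. In both genes the weightless libraries were also above replicate 1. GIMAP6, a GTPase of the immunity-associated family, had 31.9, 24.3 and 31.4 CPM in space_microg and 30.5 and 17.3 CPM in space_1g, and ATOX1, a copper chaperone, 20.8, 21.2 and 24.2 CPM in space_microg and 23.02 and 13.97 CPM in space_1g. There replicate 1 lay inside the weightless range, with differences of 0.71 ± 0.26 and 0.62 ± 0.24 against replicate 2. CLK1, a kinase of splicing factors, differed by 0.55 ± 0.22, and by 0.52 with composition trends removed.

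On the lower side stood POLR2A, KDM6B and HK2, given above, with PRPF8, CTDNEP1 and GGT7. PRPF8, the central protein of the spliceosome, had 826, 748 and 765 CPM in space_microg and 931 and 1069 CPM in space_1g, a difference of -0.46 ± 0.21 against replicate 2. CTDNEP1, a phosphatase of the nuclear envelope, had 52.2, 36.9 and 60.2 CPM in space_microg and 65.01 and 75.4 CPM in space_1g, a difference of -0.62 ± 0.29, and GGT7 one of -0.60 ± 0.26. All 3 genes were below both 1 g libraries, CTDNEP1 overlaps the coding gene ELP5 and GGT7 overlaps ACSS2, and the ground libraries held 728, 827 and 788 CPM of PRPF8. Genes with a difference against replicate 2 alone at least as large as against both space_1g libraries included POLR2A, HK2 and RPS12. PRPF8, CTDNEP1, MAGOH, CD9, GIMAP6 and ATOX1, picked against replicate 2 alone, had one too.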

How the data were processed

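RNA of 8 HMEC-1 libraries was sequenced with a stranded kit after ribosomal RNA was removed, per the labels' protocols. The submitters' processing notes name STAR 2.5.3, CASAVA 1.8.2, featureCounts, FastQC, edgeR and the builds GRCh38 and hg38, with no roles. The deposited values are a normalised signal for each gene that the labels call CPM, and equal recovered whole reads scaled with edgeR's TMM factors within 1e-06 percent, so the columns sum to 966156 to 1061177. One read was worth 0.0285 to 0.0398 CPM, and 100% of values were whole reads within 1e-06. A count of 0 allows 3 reads, or 0.0855 to 0.12 CPM, for counting error only. Counts of flight libraries in 1 group differed more than counting error allows (chi-square over its degrees of freedom, 61.8 to 174).

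Genes with at least 1 CPM in 2 or more libraries were kept (16103 of 16153, 50 left out) and analysed as log2(CPM + 1). The test was limma 3.58.1 in R 4.3.3 (two-sided, moderated with a mean trend), fitted to the 8 libraries together without covariates, and again with space_1g replicate 1 left out. It had been planned for plain CPM and was kept for the scaled values. Alternatives were edgeR 4.0.16 and DESeq2 1.42.0 on the recovered reads, other pseudocounts, filters, scalings and weights, a replicate block and each library left out. The members and the gene lists were chosen with earlier results of these data known. Named genes were, per direction, the 12 (replicate 2 alone: 6) with the smallest unadjusted p among genes averaging 5 CPM or more whose groups did not overlap, without clone, antisense and pseudogene names. Up to 4 members with the smallest p per list and a set of genes chosen for their function were added, and not all of these are named. GENCODE v29 held 13895 of the 16153 symbols (86.0%), and RefSeq synonyms gave older names. In simulated data, with changes of 1.5-, 2-, 4- and 8-fold planted in sets of 50 genes, 3 unplanted genes were called with both space_1g libraries and 8 with replicate 2 alone. Planting them together eases the adjusted threshold.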

Additional observations from a re-analysis of the deposited data

How the results depend on the processing

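The number of genes past the adjusted threshold was 0 under every alternative run, with both space_1g libraries and with replicate 2 alone. The number at an unadjusted p under 0.05, 212 with both space_1g libraries, was 339 with DESeq2, 133 with array weights and 850 with the replicate block, and 33 to 2421 with each library left out. With replicate 2 alone, where it was 33, it was 13 with a filter of 5 CPM, 107 with only the flight libraries in the fit, 65 without the trend, 872 with array weights, 266 with the replicate block and 14 to 148 with each library left out. The cause of these moves was not tested. Deviations of libraries with the same replicate number correlated at 0.68 and 0.20 between the flight groups. Between space_1g and ground they correlated at -0.68 and 0.60, and between space_microg and ground from -0.40 to 0.56. With 2 libraries in space_1g, the deviations of 1 mirror those of the other. The numbers were thus not taken to pair the samples.

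Some differences of named genes changed sign. ACTB was at -0.075 with the replicate block, CAV1 at 0.048 with array weights and PIEZO1 at 0.12 with GC content and length trends removed, an alternative chosen after seeing the data. With each library left out, ACTB, CAV1, CDKN1A, FLG, KLF4, NOS3, PKP1, ATOX1 and GIMAP6 ranged over both signs, ACTB from -0.11 to 0.26, CAV1 from -0.28 to 0.18, CDKN1A from -1.68 to 0.24, FLG from -4.21 to 0.55, KLF4 from -1.93 to 0.19, NOS3 from -1.47 to 0.32, PKP1 from -2.34 to 0.082, ATOX1 from -0.063 to 0.62 and GIMAP6 from -0.073 to 0.71. CDKN1A, FLG, KLF4, NOS3 and PKP1, whose differences were not small, turned without space_1g replicate 1. At this depth libraries of a group differed beyond counting noise, so the precision of the comparison came from the spread between libraries, with 2 libraries at 1 g.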
